A study of Mus musculus with 36 samples.

Results

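Olfactory receptor genes were followed in mouse embryonic fibroblasts (MEF cells) in which transcription of the major satellite repeats had been forced. The genes were chosen by their raw counts. A gene was taken when its symbol in the GENCODE M21 annotation begins with Olfr and its raw counts, summed over all 36 libraries, were at least 100. This left 186 of 1407 receptor genes, or 13.2%, on 17 chromosomes. The other 1221 fell below the minimum, 277 of them with no count at all and 944 with 1 to 99 counts. Just inside the minimum were Olfr1380 with 102 counts and Olfr284 and Olfr353 with 100 counts each, and just outside were Olfr142 with 99, Olfr541 with 98 and Olfr434 with 97. The sum that chose the genes includes both cell lines, and 150 of the 186 genes had over 90% of their counts in the MSR-dCas9-Activator line, so most of them were taken because they were high there. How many of them differed between the lines is therefore a description of the chosen genes and supports nothing further.

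The libraries came from 2 lines, each with 3 replicates at 6 stages. MSR-dCas9-Activator cells carry a catalytically dead Cas9 fused to the VPR transcriptional activator together with a guide RNA against the major satellite repeats (MSR), the A/T-rich repeats of pericentric heterochromatin. MSR-dCas9-Control cells carry the same dead Cas9 and guide without an effector. In both lines the protein is made from a doxycycline-inducible promoter, the constructs were inserted with the PiggyBac transposon, and the cells were kept under hygromycin as mixed cultures, not single clones. Each line was sampled uninduced, after induction (doxycycline, 10 ng/ml), and again 3, 6, 12 and 24 h from its removal. Doxycycline was given for 24 h to the Control line and for 6 h to the Activator line, so a difference between the lines at induction holds the effector and the length of exposure together and these cannot be told apart. The study's methods describe the 3 replicates as biological.

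Olfactory receptors are the G protein-coupled receptors with which olfactory sensory neurons detect odorants. They form one of the largest mouse gene families, lie in clusters on most chromosomes, and have an intronless coding exon behind 1 or more noncoding exons. An olfactory sensory neuron transcribes a single receptor allele, while the other receptor genes stay in compact heterochromatin in the neuron's nucleus and in nearly all other cells. Class I receptors, the fish-like kind, sit in a cluster on chromosome 7, and the class II receptors are spread over the other clusters.

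The libraries held 27376846 to 57371803 gene counts each. Levels are given in CPM, gene counts scaled by library total and TMM factor, a unit not corrected for gene length. Major satellite RNA (the GSAT_MM repeat family) lay at 22.6 to 47.1 CPM in the 18 Control libraries, at 52.1 to 99.3 CPM in the uninduced Activator libraries and at 2362 to 47244 CPM in the 15 Activator libraries from induction onward. In the induced Activator group, replicate 2 had 2362 CPM, against 3573 and 25191 CPM in replicates 1 and 3. Summed over 12 fibroblast marker genes, the level at 12 h was 15526 to 18597 CPM in the Activator line and 23375 to 24678 CPM in the Control line.

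The receptor genes differ in sequence, which bears on how reads can be told apart. In 172 of the 186 genes an open reading frame of at least 900 bases was found in a GENCODE M21 transcript. For 159 of these the closest other receptor was found, with a median identity of 89.2%, and in 48 genes that identity was at least 95%. Among these 48 are Olfr1373, Olfr1564, Olfr859, Olfr1392 and Olfr544, whose levels are given below. The closest pair, Olfr1359 and Olfr1360, shared 99.7% of bases, so counts of such genes can be split between copies and are uncertain for the single gene. The following stretches, read on the coding strand of GRCm38, cover the codons of the aspartate-arginine-tyrosine-type motif behind the third membrane helix, a hallmark of the family. They are shown because the results turn on these genes and because the stretch shows how far receptors in 1 cluster resemble each other. Capitals mark the motif codons.
Olfr1420 at chr19:11896362-11896418 (+): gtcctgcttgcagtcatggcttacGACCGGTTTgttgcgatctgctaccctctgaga
Olfr1419 at chr19:11870819-11870875 (-): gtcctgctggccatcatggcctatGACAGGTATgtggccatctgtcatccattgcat
Olfr63 at chr17:33269065-33269121 (+): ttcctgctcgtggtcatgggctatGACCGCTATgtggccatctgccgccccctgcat
Olfr1564 at chr17:33215950-33216006 (-): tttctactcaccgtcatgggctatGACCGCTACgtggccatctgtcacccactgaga
Olfr548-ps1 at chr7:102542280-102542336 (+): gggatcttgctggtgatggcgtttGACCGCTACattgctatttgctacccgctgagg
Olfr157 at chr4:43836096-43836152 (-): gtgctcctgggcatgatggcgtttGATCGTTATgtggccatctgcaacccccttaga
Olfr155 at chr4:43854650-43854706 (+): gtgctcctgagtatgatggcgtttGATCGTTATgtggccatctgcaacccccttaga

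Olfr157 and Olfr155 lie on opposite strands of the same cluster on chromosome 4, and their closest receptors are Olfr156 at 93.3% and Olfr159 at 91.9% identity. Olfr1420 and Olfr1419, also neighbours, resemble their closest receptors at only 71.2% and 70.5%. Olfr548-ps1 carries a pseudogene name, yet its open reading frame in the GENCODE M21 transcript runs to 945 bases. Among the 186 genes, 170 are annotated as protein coding and 16, or 8.60%, as pseudogenes, against 21% of the receptor genes below the minimum. The median exon length was 3220 bases, against 2439 bases below the minimum, and a longer gene gathers more counts at the same level.

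Promoter windows of 250 bases before the transcript start could be matched in RefSeq for 142 of the genes. For most of them the RefSeq start lay far from the GENCODE start, with a median distance of 3758.5 bases. In 10 genes with more than 1100 exonic bases the starts lay within 10 bases of each other. Where transcripts of these genes began was not measured. The windows of Olfr544, Olfr367-ps, Olfr212 and Olfr70 hold no match to the motifs searched and are not shown. Of the windows with a match 4 are shown, 3 of them on chromosome 9. The windows shown are given on the RefSeq build GRCm38.p6. Capitals mark matches to TAATNA, a short homeodomain motif, or in Olfr374 to CCCNNGGG, the motif of the Ebf factors. Both strands were searched, and overlapping matches are joined.
Olfr58 at chr9:19780033-19780282 (+): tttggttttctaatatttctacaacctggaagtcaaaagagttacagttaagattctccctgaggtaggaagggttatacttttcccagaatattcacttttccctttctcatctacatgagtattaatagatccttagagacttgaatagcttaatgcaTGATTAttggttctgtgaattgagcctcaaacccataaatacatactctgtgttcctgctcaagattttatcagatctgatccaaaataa
Olfr860 at chr9:19849748-19849997 (-): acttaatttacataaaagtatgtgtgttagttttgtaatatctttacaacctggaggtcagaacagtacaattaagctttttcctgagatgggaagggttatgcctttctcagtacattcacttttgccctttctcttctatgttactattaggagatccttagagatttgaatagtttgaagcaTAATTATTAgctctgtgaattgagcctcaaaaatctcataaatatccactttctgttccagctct
Olfr39 at chr9:20282101-20282350 (+): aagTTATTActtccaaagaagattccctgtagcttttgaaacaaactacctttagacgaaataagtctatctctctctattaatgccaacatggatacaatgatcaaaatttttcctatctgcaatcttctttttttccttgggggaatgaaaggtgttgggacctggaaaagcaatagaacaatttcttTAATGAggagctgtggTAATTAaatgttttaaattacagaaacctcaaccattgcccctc
Olfr374 at chr8:72106790-72107039 (+): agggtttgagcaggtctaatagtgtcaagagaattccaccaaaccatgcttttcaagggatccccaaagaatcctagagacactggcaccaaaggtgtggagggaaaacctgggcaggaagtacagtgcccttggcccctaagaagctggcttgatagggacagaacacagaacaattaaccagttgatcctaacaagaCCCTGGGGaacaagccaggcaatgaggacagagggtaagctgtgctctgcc

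The homeodomain motif occurred in 5 of the 10 windows and in 24.3% of all 32851 windows of this length. The Ebf motif occurred in 2 of the 10 and in 11.8% of all windows, and TATAAA in 1 of the 10 and in 12.4%. A match is a run of letters and not a shown binding site. In the induced Activator libraries Olfr58 lay at 3.56, 2.17 and 3.82 CPM and Olfr860 at 0.855, 0.393 and 1.35 CPM, both with no count in the induced Control libraries. Olfr39 held 2.70, 0.969 and 3.37 CPM there, with 1 count in the induced Control libraries. Olfr374, on chromosome 8, shares exon bases with Gm24747 and had counts in every Control library.

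Summed over the 186 genes, receptor RNA stood at 10.6 to 15.8 CPM in the Control libraries and at 14.8, 12.2 and 14.7 CPM in the uninduced Activator libraries. It then reached 290.0, 138 and 358 CPM in the 3 induced Activator libraries, 381, 357 and 307 CPM at 3 h, 423, 415 and 441 CPM at 6 h, 481, 444 and 517 CPM at 12 h, and 362, 133 and 282 CPM at 24 h. All 15 Activator libraries from induction onward lay above all 21 others. The group means were 262 ± 113 CPM at induction, 348 ± 37.8 CPM at 3 h, 427 ± 13.3 CPM at 6 h, 480.5 ± 36.4 CPM at 12 h and 259 ± 116 CPM at 24 h (SD, n = 3). Against the Control group of the same stage these means were 19.4, 31.4, 30.2, 35.2 and 18.4 times as high, and 1.09 times before induction. Replicate 2 was the lowest of the 3 at induction and at 24 h. It also had the least major satellite RNA of the 3 in both groups, 2362 and 10773 CPM. The order was not kept at the other stages. At 3 h replicate 3 had the lowest receptor level and the most satellite RNA, 20990 CPM, while replicate 1 had the highest receptor level and the least, 4152 CPM. At 12 h replicate 1 had the least satellite RNA, 7996 CPM, and replicate 2 the lowest receptor level. The part of satellite RNA in the differences between replicates was not tested. In bulk RNA, fewer cells transcribing a gene and less RNA per cell cannot be told apart, so these levels do not say how many cells held receptor RNA. By flow cytometry, the study found most Activator cells apoptotic or dead at the last stage after doxycycline removal, while Control cells stayed viable. The part of cell death in the levels at 24 h, and in the falls of single genes and runs toward that stage, was not tested.

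**Figure D1:**
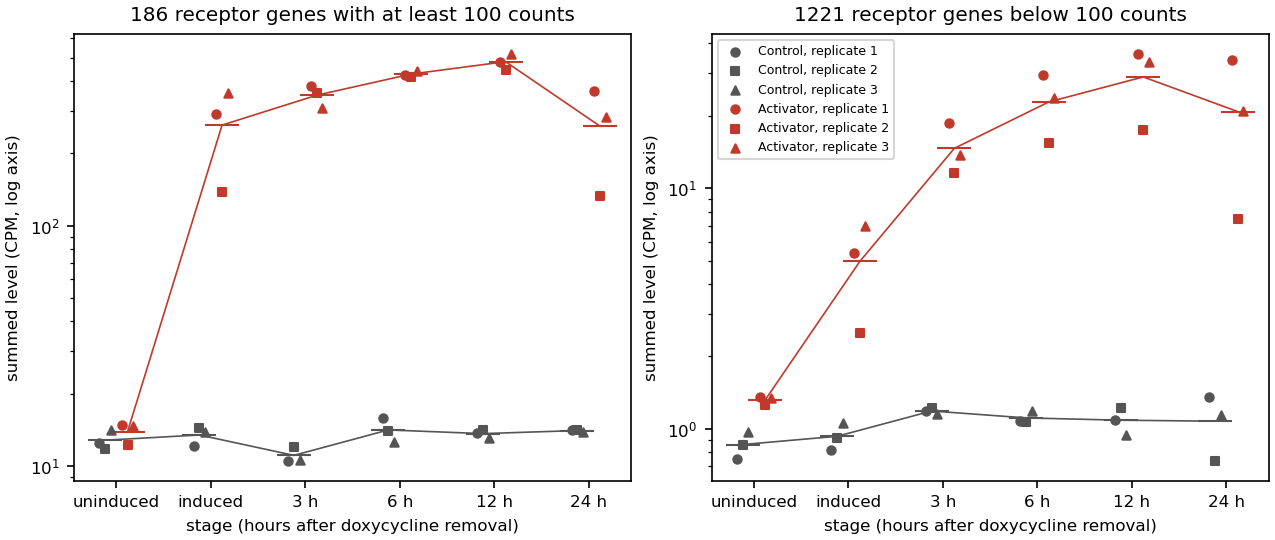
Summed level in CPM (log axis) of the 186 receptor genes with at least 100 counts (left) and of the 1221 genes below that minimum (right) at each stage. Each marker is 1 library, each short bar a group mean of 3, and lines join the means. The Activator libraries from induction onward sit at 133 to 517 CPM on the left, above all Control libraries, and both panels reach their highest mean at 12 h.

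The genes below the minimum were not picked for a high sum, and their summed level also stood apart between the lines. It was 0.860 to 1.19 CPM as a group mean in the Control line and 1.32, 4.96, 14.6, 22.8, 29.0 and 20.8 CPM in the Activator line from uninduced to 24 h. The ratio to the Control group of the same stage went from 1.54 before induction to 5.33 at induction and 26.7 at 12 h. Receptor genes with at least 1 count, of all 1407, numbered 82 to 113 in a Control library, 105 to 121 in an uninduced Activator library, 213 to 351 at induction and 517 to 673 at 12 h. Receptor genes with counts were thus not limited to the 186. Most of the signal was carried by a few: the 186 genes held 95.1% of all receptor counts, and the 10 leading genes held 43.6% of theirs.

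Before induction no receptor gene passed the test between the lines. The test was edgeR's quasi-likelihood test over 28536 genes with Benjamini-Hochberg adjustment, and a gene was called at an adjusted p under 0.05 and a log2 fold change beyond 1. Of the 186 genes 175 had enough counts to be tested, and the 11 others, with sums of 102 to 140, were not. Called were 0 higher and 0 lower, where 0.641% of all genes were higher and 0.109% lower, and 4 of the 175 had an unadjusted p under 0.05. The nearest to a call was Olfr1372-ps1, a transcribed receptor pseudogene at chr11:52154722-52168159. It lay at 0.648, 0.337 and 0.451 CPM in the Control libraries and at 1.17, 1.54 and 1.42 CPM in the Activator libraries before doxycycline. These groups did not overlap, with a log2 fold change of 1.47 (SE 0.40) and an adjusted p of 0.0698 in edgeR's quasi-likelihood test. DESeq2 gave an adjusted p of 0.00344 for it, and it was also called without the replicate number in the fit and with only the compared groups in the fit.

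The Control line was given doxycycline too. Between induced and uninduced Control libraries 0 of 175 were called in edgeR's quasi-likelihood test, where 0.0175% of all genes were higher and 0.0946% lower, and 3 had an unadjusted p under 0.05. DESeq2 called 0 as well. Across the later Control stages against uninduced, edgeR's quasi-likelihood test made the call for Olfr920 alone, at 12 h, where 0.428% of all genes were lower. Of all genes 0.0946%, 0.0456%, 0.0526% and 0.0666% were higher and 0.144%, 0.109%, 0.428% and 0.144% lower at 3, 6, 12 and 24 h. At these stages 3, 0, 3 and 6 receptor genes had an unadjusted p under 0.05. Olfr920 lay at 0.205, 0.276 and 0.190 CPM uninduced and at 0, 0.0612 and 0.0472 CPM at 12 h, a log2 fold change of -2.53 (SE 0.60, adjusted p = 0.0276).

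Olfr1372-ps1 led the receptor genes with 30881 counts. In the Activator line it lay at 39.2, 20.2 and 53.9 CPM at induction and at 55.2, 69.3 and 66.0 CPM at 12 h, while no Control library was above 1.25 CPM. The fitted log2 difference between the lines was 5.73 (SE 0.34, adjusted p = 1.59e-12) at induction and 6.48 (SE 0.35, adjusted p = 2.81e-14) at 12 h. Its neighbour Olfr1373, 1 short exon at chr11:52144593-52145528, reached 9.76, 5.21 and 12.2 CPM at induction and 11.9, 14.5 and 13.6 CPM at 12 h, against at most 0.471 CPM in a Control library. The log2 difference was 5.03 (SE 0.35, adjusted p = 2.55e-12) at induction.

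Olfr1420 and Olfr1419, at chr19:11886565-11898079 and chr19:11868613-11875106, came next. Olfr1420 held 12.1, 4.43 and 15.2 CPM at induction, 19.7, 22.3 and 20.9 CPM at 3 h, 28.7, 31.1 and 34.6 CPM at 6 h, 35.9, 36.9 and 44.5 CPM at 12 h, and 29.1, 10.2 and 25.7 CPM at 24 h. Every induced or later Activator library was above every Control library, the highest of which had 0.135 CPM. The fitted log2 difference was 6.92 (SE 0.51, adjusted p = 4.13e-11) at induction, or 121-fold, and 9.90 (SE 0.54, adjusted p = 3.58e-14) at 12 h. Olfr1419 went from 8.01, 2.46 and 13.0 CPM at induction to 30.2, 29.0 and 36.6 CPM at 12 h. In the 3 Control libraries at 12 h it had 0 counts against 3642 in the Activator line, so it was at least 1367-fold higher, taking 3 counts over the group as the floor. At induction the Control line held 1 count, and the ratio was 1030 with a 95% exact interval of 184 to 40705 that covers counting error only.

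Olfr63 and Olfr1564 are neighbours on chromosome 17, on opposite strands. Olfr63 held 7.79, 3.48 and 10.7 CPM at induction and 19.2, 18.1 and 23.6 CPM at 12 h, when the Control libraries had 3 counts in all. Olfr1564 held 11.8, 6.49 and 12.5 CPM at induction and 14.8, 14.6 and 13.9 CPM at 12 h, against 0.182 to 0.506 CPM in the induced Control libraries. Both were above the Control line in all 3 replicates at induction, by 6.72 (SE 0.48) and 5.01 (SE 0.37) on the log2 scale, with adjusted p of 7.63e-12 and 1.06e-11 in edgeR's quasi-likelihood test.

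Olfr859 on chromosome 9 and Olfr548-ps1 on chromosome 7 had no count in any induced Control library. Olfr859 held 8.94, 3.69 and 12.1 CPM in the induced Activator libraries, at least 358-fold higher, and 9.67, 12.5 and 11.2 CPM at 12 h. Olfr548-ps1 held 13.7, 3.72 and 15.5 CPM at induction, at least 482-fold higher. Its 12 h libraries, at 8.43, 3.74 and 7.28 CPM, all lay below its 3 h libraries, at 14.6, 9.09 and 14.4 CPM. Olfr461 on chromosome 6 (9.39, 5.50 and 12.8 CPM at induction) and Olfr1392 on chromosome 11 (7.0, 4.63 and 7.87 CPM) had low Control levels, at most 0.457 and 0.377 CPM. Olfr1443 and its neighbour Olfr1442 on chromosome 19 had no count in the induced Control libraries and were at least 299-fold and 246-fold higher at induction. Olfr1443 shares exon bases with the predicted gene Gm49772.

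**Figure D2:**
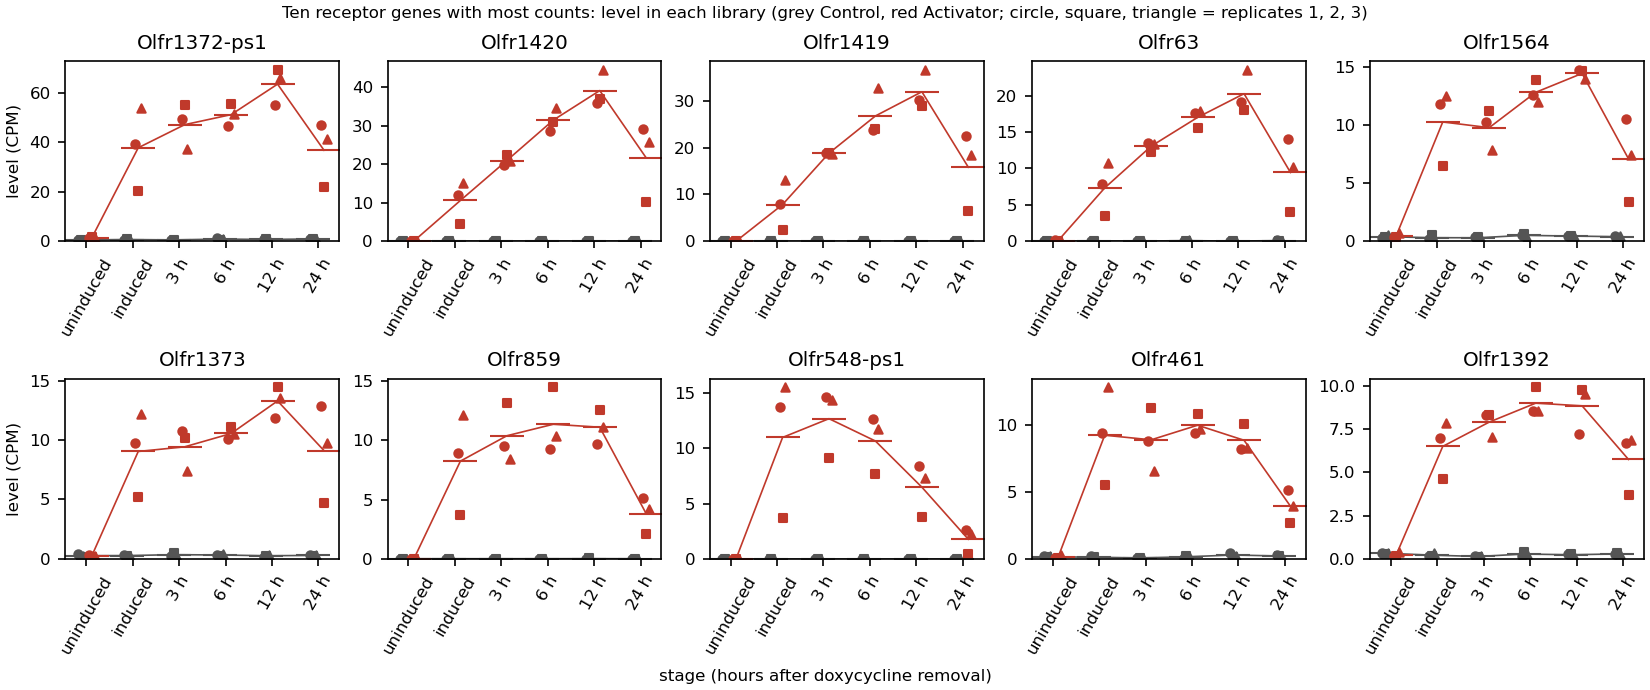
Level in CPM (linear axes from 0) of the 10 receptor genes with most counts at each stage, with Control libraries in grey and Activator libraries in red. Markers are libraries, short bars group means of 3, and lines join the means. Olfr1372-ps1 reaches 69.3 CPM, and Olfr548-ps1 falls from 3 h on while Olfr1420, Olfr1419 and Olfr63 climb until 12 h.

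Per kilobase of exon the order changed. At 12 h in the Activator line Olfr1373 stood at 14.2 CPM per kb, Olfr1420 at 12.8, Olfr1419 at 10.1, Olfr1372-ps1 at 6.47 and Olfr856-ps1, a receptor pseudogene on chromosome 9, at 5.41, while the median of the 186 genes was 0.286 CPM per kb. The long Olfr1372-ps1, with 9812 exonic bases, thus led by counts and not by level per length. Olfr1373 is 98.6% identical to its closest receptor, Olfr1381, so its level as a single gene is uncertain.

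At induction 132 of 175 receptor genes were called higher in the Activator line and 2 lower, where 22.1% of all genes were higher and 12.2% lower. At 3 h the counts were 161 higher and 1 lower (all genes 27.1% and 18.6%), at 6 h 165 and 3 (28.6% and 19.6%), at 12 h 164 and 2 (31.3% and 18.9%), and at 24 h 156 and 1 (27.9% and 7.3%). These counts hold genes taken for their high sums, so they describe and do not test. In a fit with 1 line term over the time points, 165 were higher and 1 lower, where 27.9% and 11.2% of all genes were. At least 1 stage gave a higher call for 169 genes and a lower call for 4, and 2 were never called. The higher call was made at all 5 stages for 119 genes. The median log2 difference was 4.75 at induction, where the median of all genes was 0.10. With the 73 genes that had no induced Control count set to their lower bound, it was 3.07. At 12 h it was 6.54, or 4.93 with 80 genes at their bound. Scaling to mitochondrial mRNAs moved the median of all genes by -0.35 at induction and -0.61 at 12 h and took the share of higher among all called genes from 64.4% to 49% and from 62.4% to 43.3%. At 3, 6 and 24 h the shift was -0.60, -0.71 and -0.19, and the share went from 59.3% to 41.4%, from 59.4% to 38.5% and from 79.3% to 68.1%. Under that scaling 125 receptor genes were higher and 2 lower at induction, where 5412 of all 28536 genes were higher and 5622 lower. At 3, 6, 12 and 24 h, 151, 154, 162 and 152 receptor genes were higher and 5, 5, 4 and 1 lower. Of all 28536 genes 6303, 6472, 7457 and 7277 were higher at these stages and 8935, 10360, 9776 and 3402 lower.

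Genes that would have been taken on Control counts alone carry no such choice. In 29 of the 186 genes the Control line by itself held at least 100 counts. None of the 29 was called before induction. At induction 14 were called higher and 2 lower, or 48.3% and 6.90%, where 22.1% and 12.2% of all genes were, with a median log2 difference of 1.06. At 3, 6, 12 and 24 h, 21 of the 29 were called higher at each stage, or 72.4%, and 1, 3, 2 and 1 were called lower. Of all genes 27.1%, 28.6%, 31.3% and 27.9% were higher at these stages and 18.6%, 19.6%, 18.9% and 7.3% lower. Olfr543, for instance, held 0.538 to 1.14 CPM in the Control line and 6.39, 3.67 and 4.68 CPM in the induced Activator libraries, a log2 difference of 2.56 (SE 0.23, adjusted p = 3.47e-10). Olfr544 beside it held 9.47, 5.89 and 9.30 CPM against 0.856, 1.17 and 0.836 CPM, a log2 difference of 3.08 (SE 0.29, adjusted p = 5.64e-10). In 13 of the 186 genes exon bases are shared with another gene, and reads there may belong to either. Among the 162 tested genes without such sharing, 125 were higher and 2 lower at induction, and 152 and 1 at 12 h.

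Olfr1033 and Olfr814 were the genes that were never called. Olfr1033 lay at 0.223, 0.299 and 0.291 CPM in the induced Control libraries and at 0.175, 0.393 and 0.245 CPM in the induced Activator libraries. Olfr814 lay at 0.0745, 0.161 and 0.145 CPM against 0.311, 0.131 and 0.204 CPM. In both genes the induced groups overlapped.

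A fall was called for 4 genes, all with counts in the Control line. Olfr99 and Olfr755-ps1 are neighbours at chr17:37279043-37283460 and chr17:37276648-37278105, beside H2-M3, a nonclassical class I histocompatibility gene. Olfr99 held 0.495, 0.502 and 0.563 CPM in the Control line at 3 h and 0.138, 0.211 and 0.0786 CPM in the Activator line, without overlap. The log2 difference was -1.89 (SE 0.38, adjusted p = 6.87e-05) at 3 h and -1.62 (SE 0.38, adjusted p = 0.00042) at 6 h, and these calls held under every alternative that was run. At induction it was -1.0 (SE 0.38, adjusted p = 0.0268), a call lost in 11 of the alternatives. Among these were DESeq2 (-0.93, adjusted p = 0.0626), only the groups compared (-0.96, adjusted p = 0.144), and replicate 1 (-0.75, adjusted p = 0.217) or replicate 3 (-0.70, adjusted p = 0.287) left out. Olfr755-ps1 held 0.316, 0.299 and 0.182 CPM in the induced Control libraries and 0.0194, 0.209 and 0.0818 CPM in the induced Activator libraries, where the groups overlapped. Its log2 difference was -1.52 (SE 0.61, adjusted p = 0.0333). Without replicate 1 it was -0.77 (adjusted p = 0.391). At 6 h it was -1.58 (SE 0.66, adjusted p = 0.0312), and -1.23 (adjusted p = 0.159) without replicate 1.

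Olfr1397-ps1, which lies inside Cep112 on the opposite strand, held 0.254, 0.184 and 0.142 CPM at 12 h in the Control line and 0.0242, 0.0875 and 0.0687 CPM in the Activator line. Its log2 differences were -2.59 (SE 0.74, adjusted p = 0.00273) at 6 h, -1.66 (SE 0.72, adjusted p = 0.0382) at 12 h and -2.83 (SE 0.72, adjusted p = 0.0012) at 24 h. Without replicate 1 the values at 6 and 12 h were -1.99 (adjusted p = 0.0859) and -1.02 (adjusted p = 0.349). The call at 12 h was also lost with DESeq2 (-1.51, adjusted p = 0.0680) and without replicate 3 (-1.92, adjusted p = 0.0534), among other settings. Cep112 itself was at -0.76 (adjusted p = 9.51e-06) at 12 h in edgeR's quasi-likelihood test. Olfr482 held 0.584, 0.408 and 0.637 CPM at 12 h in the Control line and 0.193, 0.263 and 0.275 CPM in the Activator line. The log2 difference at that stage was -1.14 (SE 0.37, adjusted p = 0.00634), and the call was lost with replicate 1 left out (-0.93, adjusted p = 0.0835) and with DESeq2, whose log2 difference was -0.94. It shares exon bases with the pseudogene Gm44870, which was at -1.39 (adjusted p = 0.0160) at that stage.

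Within the Activator line, induced against uninduced, 131 of 175 genes were higher and 0 lower, where 20.5% and 13.9% of all genes were. This comparison shares its induced libraries with the one between the lines. Its uninduced libraries also enter the sum that chose the genes, the comparison before induction and the fit over the time points. All comparisons share 1 fit of the 36 libraries, so they are not independent. Olfr1372-ps1 differed by 4.75 (SE 0.32, adjusted p = 1.08e-11), Olfr1420 by 7.14 (SE 0.52, adjusted p = 3.41e-11) and Olfr1392 by 4.83 (SE 0.30, adjusted p = 6.90e-13) on the log2 scale. Olfr548-ps1, with no count before doxycycline, was at least 500.4-fold higher. At 3, 6, 12 and 24 h against uninduced, 156, 163, 162 and 157 genes were higher and 3, 1, 1 and 1 lower, where 25.4%, 28.2%, 29.7% and 27.1% of all genes were higher and 20.4%, 19.7%, 19.4% and 6.54% lower.

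The change on induction was also set against that in the Control line in 1 term. It was larger in the Activator line for 35 of 175 genes and smaller for 0, where 9.14% of all genes were larger and 10.5% smaller. DESeq2 called 86, where it called 23% of all genes in either direction. The count is limited by empty groups. Of the 140 genes not called, 100 had no count in at least 1 of the Control uninduced, Control induced and Activator uninduced groups, while 28 of the 68 genes with counts in all 3 were called. Without replicate 1 the count was 21 and without replicate 3 it was 19. Olfr1392 had a difference of changes of 5.57 (SE 0.51, adjusted p = 5.30e-08) and Olfr543 of 2.67 (SE 0.34, adjusted p = 2.03e-06).

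The genes did not rise together. Of the 169 genes called higher at some stage, 132 were first called at induction and 30, 4, 2 and 1 at 3, 6, 12 and 24 h. The highest group mean came at induction in 17 of them, and in 9, 33, 104 and 6 at the 4 later stages in turn. These stages follow removal of doxycycline. Between 12 h and induction in the Activator line 106 genes were called higher and 12 lower, where 17.5% and 4.25% of all genes were, and between 24 h and induction 61 and 28, where 18.4% and 5.59% were. Without replicate 1 the latter counts were 28 and 26. In the Control line the same comparisons called 0 genes each with edgeR's quasi-likelihood test, where 0% of all genes were higher and 0.0035% and 0% lower, and 4 and 2 genes had an unadjusted p under 0.05. DESeq2 counts for these Control comparisons are not given here.

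**Figure D3:**
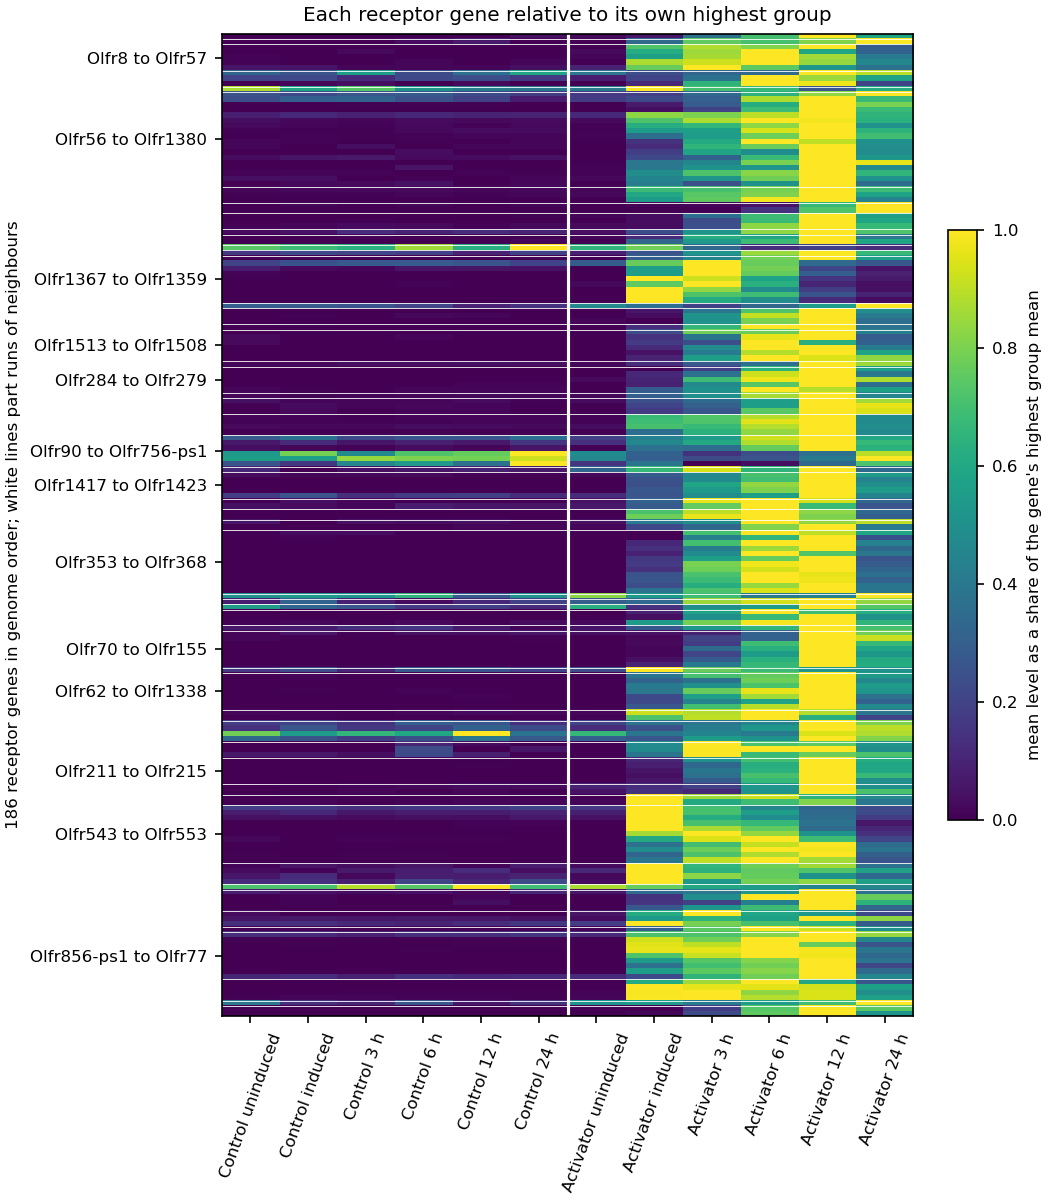
Mean level of each of the 186 receptor genes in each of the 12 groups as a share of the gene's own highest group mean, in genome order, with white lines between runs of neighbours. Most genes are dark in the Control and uninduced Activator columns and brightest at 12 h, while the runs Olfr543 to Olfr553 and Olfr1367 to Olfr1359 are brightest at induction and 3 h.

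The late risers included Olfr157 and Olfr155. Olfr157 had no count in any Control library and lay at 0.505, 0.157 and 0.879 CPM at induction, 4.81, 2.78 and 3.48 CPM at 3 h, 8.77, 5.06 and 10.3 CPM at 6 h, 14.5, 8.73 and 14.7 CPM at 12 h, and 11.8, 3.15 and 8.23 CPM at 24 h. It was at least 22.5-fold above the Control line at induction and at least 536-fold at 12 h. Between 12 h and induction it rose by 4.67 (SE 0.32, adjusted p = 1.56e-08) on the log2 scale, and the 2 groups did not overlap. Olfr155 rose by 3.48 (SE 0.38, adjusted p = 1.10e-06) over the same interval, from 0.758, 0.0786 and 0.900 to 6.79, 4.86 and 6.49 CPM. Olfr312 on chromosome 11 appeared later still. It had no count in any library at induction or 3 h, 0.0677, 0.0464 and 0.0845 CPM at 6 h, 0.411, 0.372 and 0.240 CPM at 12 h, and 0.485, 0.400 and 0.524 CPM at 24 h.

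The early fallers included Olfr1359 and Olfr548-ps1. Olfr1359 held 2.82, 0.445 and 2.98 CPM at induction, 0.314, 0.241 and 0.206 CPM at 12 h and 0.0969, 0 and 0.0998 CPM at 24 h. It fell by 2.89 (SE 0.57, adjusted p = 0.000754) between induction and 12 h on the log2 scale and by 4.90 (SE 0.69, adjusted p = 3.31e-05) between induction and 24 h. Olfr548-ps1 went from 13.7, 3.72 and 15.5 CPM at induction to 8.43, 3.74 and 7.28 CPM at 12 h, a difference that missed the call (-0.65, adjusted p = 0.0810), and to 2.62, 0.422 and 2.25 CPM at 24 h (-2.65, SE 0.31, adjusted p = 6.68e-06). Olfr544 fell by 1.55 (SE 0.26, adjusted p = 1.75e-05) by 12 h and by 2.19 (SE 0.27, adjusted p = 1.13e-07) by 24 h. Olfr1372-ps1 at 24 h differed from induction by -0.04 (SE 0.25, adjusted p = 0.916).

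The genes lay in runs. With a gap of at most 200 kb between neighbours the 186 genes formed 54 runs, 19 of a single gene, 9 pairs, and 26 of 3 or more genes that together held 149 genes. The numbers depend little on the gap, with 59 runs at 100 kb and 47 at 500 kb, settings added after the data had been seen. The longest run, Olfr56 to Olfr1380 on chromosome 11, held 18 of the 19 receptor genes in its 587 kb. Other runs were less full, with 3 of 13 in Olfr784 to Olfr796 and 6 of 14 in Olfr90 to Olfr756-ps1. Receptor genes lie in clusters, and no run count for the whole family is given here. The runs therefore describe only where these genes lie. Runs differed in their course. The run Olfr1417 to Olfr1423 on chromosome 19, which holds Olfr1419 and Olfr1420, summed to 23.6, 8.62 and 31.7 CPM at induction, 77.7, 74.7 and 92.5 at 12 h, and 59.1, 19.3 and 49.5 at 24 h. All 5 of its genes were called higher at 12 h than at induction.

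The 11 genes from Olfr543 to Olfr553 at chr7:102476579-102618218, class I receptors, took the opposite course. They summed to 46.0, 20.5 and 46.7 CPM at induction, 40.5, 31.6 and 33.6 CPM at 3 h, 34.7, 24.6 and 33.7 CPM at 6 h, 27.8, 13.0 and 26.0 CPM at 12 h, and 13.3, 4.04 and 9.38 CPM at 24 h, against 1.27 to 2.60 CPM in the Control libraries. The libraries at 24 h lay below all libraries from induction to 6 h, and overlapped those at 12 h only through 13.3 against 13.0 CPM. At 12 h 3 of the 11 genes were higher and 5 lower than at induction, and at 24 h 0 were higher and 7 lower. The run Olfr1367 to Olfr1359 at chr13:21346910-21706833, beside histone genes, had 9 genes with a like course. It summed to 8.53, 1.05 and 9.61 CPM at induction and 1.33, 0.666 and 1.17 CPM at 24 h, with 8 of 9 genes lower at 24 h than at induction. The induced libraries were spread widely, and replicate 2 at induction lay within the range of the libraries at 24 h.

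Other runs climbed. The 7 genes from Olfr70 to Olfr155 on chromosome 4 summed to 1.44, 0.288 and 1.88 CPM at induction and 27.3, 17.2 and 27.6 CPM at 12 h. Of them 2 were above the Control line at induction and 7 at 12 h, and all 7 were higher at 12 h and at 24 h than at induction. The 12 genes from Olfr353 to Olfr368 on chromosome 2 summed to 6.90, 1.26 and 9.75 CPM at induction and 29.8, 18.7 and 28.6 CPM at 12 h, all 12 called higher. The 5 genes from Olfr211 to Olfr215 on chromosome 6 went from 1.05, 0.524 and 1.49 to 14.1, 12.8 and 15.4 CPM. In the 5 genes from Olfr8 to Olfr57 on chromosome 10 no call was made between 12 h or 24 h and induction. The run Olfr90 to Olfr756-ps1 on chromosome 17 had 1.04 to 2.18 CPM in the Control libraries, and 3 of its 5 tested genes were called higher at 12 h. Genes of a run share a neighbourhood and, in part, sequence, so they are not independent observations.

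**Figure D4:**
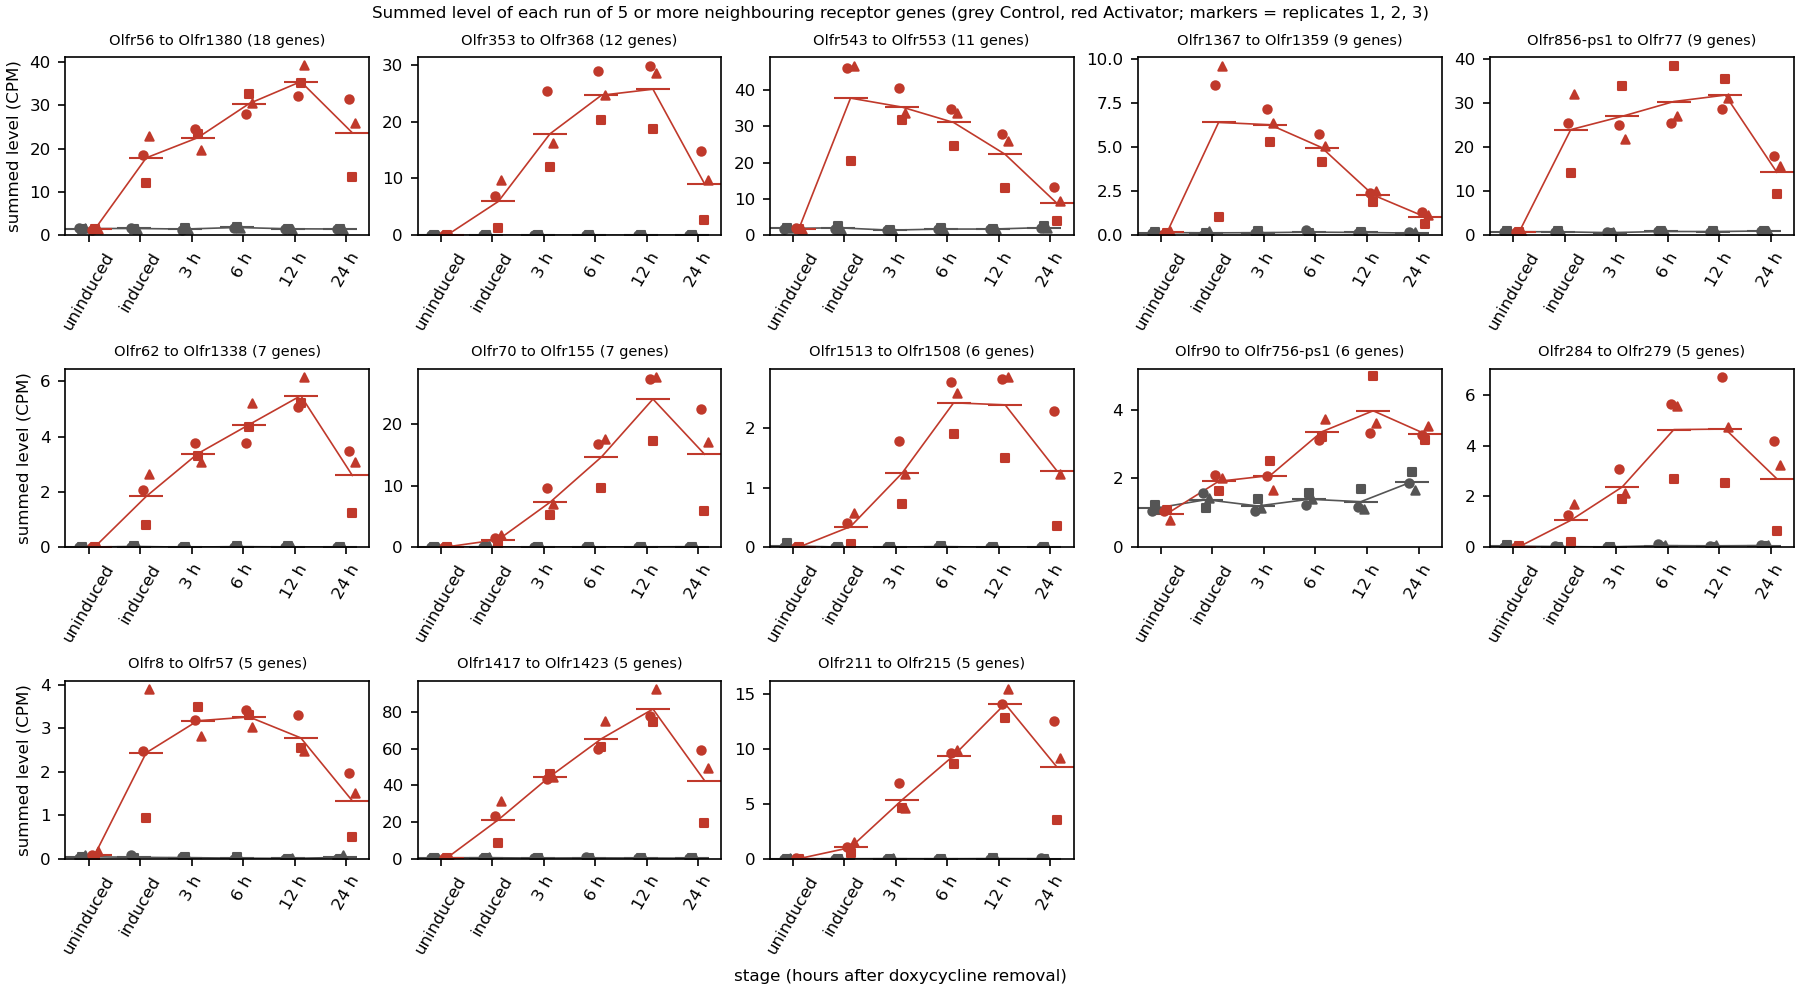
Summed level in CPM (linear axes from 0) of each of the 13 runs of 5 or more neighbouring receptor genes at each stage, with Control libraries in grey and Activator libraries in red. Markers are libraries, short bars group means of 3, and lines join the means. Most runs are highest at 6 or 12 h, while Olfr543 to Olfr553 and Olfr1367 to Olfr1359 have their highest mean at induction.

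Genes of other kinds near the receptor genes were counted too. Within 50 kb of the 186 genes lay 294 genes of other kinds, 208 of them tested. Before induction 2 of these were called higher in the Activator line. At induction 66, or 31.7%, were higher and 15 lower, where 22.1% and 12.2% of all genes were. At 12 h 97, or 46.6%, were higher and 25, or 12.0%, lower, where 31.3% and 18.9% of all genes were. Of the 420 genes that lay within 50 kb only of receptor genes below the minimum, 84 were tested, and 12, or 14.3%, were higher at induction and 21, or 25%, at 12 h. These groups differ in how many of their genes had enough counts to be tested.

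**Figure D5:**
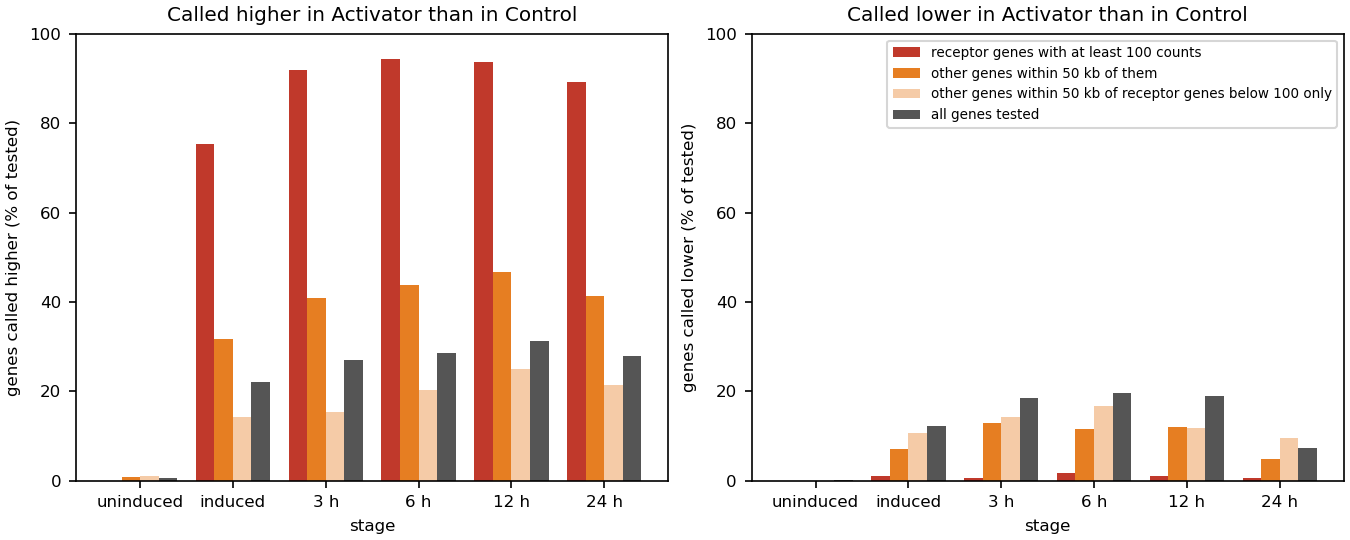
Share of tested genes called higher (left) and lower (right) in the Activator line than in the Control line at each stage, in percent, for the receptor genes with at least 100 counts, for other genes within 50 kb of them, for other genes within 50 kb only of receptor genes below 100 counts, and for all genes tested. At 12 h the shares called higher are 93.7%, 46.6%, 25% and 31.3%.

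Single neighbours went in different ways. For each named receptor gene the neighbour taken was the gene of another kind within 50 kb with the largest mean count. That rule favours genes that were already expressed. Ppp2ca, the catalytic subunit of protein phosphatase 2A, lies 16815 bases from Olfr1373 and differed by 0.00 (adjusted p = 0.967) on the log2 scale at induction. Patl1, a factor of mRNA decapping, lies 14320 bases from Olfr1420 and was at -0.92 (adjusted p = 4.27e-08) at 12 h. Mgat1, an enzyme of N-glycan synthesis 22252 bases from Olfr1392, was lower at induction (-1.04, adjusted p = 7.75e-05) and at 12 h (-1.56, adjusted p = 1.37e-07). Prss37, a gene of the serine protease family 22663 bases from Olfr461, was higher by 6.32 (adjusted p = 3.13e-11) at induction. Reck, an inhibitor of matrix metalloproteinases 17935 bases from Olfr155, was higher by 1.21 (adjusted p = 2.17e-07) at induction and 2.90 (adjusted p = 9.42e-15) at 12 h. Gm4952, 42188 bases from Olfr1442, was higher by 7.24 (adjusted p = 7.92e-15) at induction in edgeR's quasi-likelihood test. Gm45699, near Olfr859, had a mean of 0.672 CPM in the induced Activator libraries and 0 CPM in the Control line. Zfp955b, near Olfr63, and Zfp955a, near Olfr1564, were at -0.67 and -0.61 at induction. Strong rises of receptor genes thus stood beside neighbours that rose, fell or did not pass the test.

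The genes that act with the receptors in olfactory neurons were taken as 3 lists. Of 16 genes of odorant signal transduction 14 were tested, with 3 higher and 2 lower at induction and 4 higher and 2 lower at 12 h, and a median log2 difference of -0.35 at 12 h. Of all genes 22.1% were higher and 12.2% lower at induction and 31.3% and 18.9% at 12 h, so the shares of this list lay near those of all genes at induction. Pde1c, a phosphodiesterase of olfactory cilia, had no Control count at 12 h and 1.22 ± 0.32 CPM in the Activator line (SD, n = 3), at least 51.0-fold higher. Slc8b1, a sodium-calcium exchanger, was lower at 3 h, with a log2 difference of -2.20 (SE 0.42, adjusted p = 5.54e-05). Of 4 genes of receptor export 3 were tested, and 2, Rtp1 and Reep1, were higher at each stage from induction on. Rtp1, which carries receptors to the cell surface, had no Control count at 6 h and 1.57 ± 0.57 CPM in the Activator line, at least 62.8-fold higher. Of 24 genes of receptor gene choice and silencing 2 were higher and 2 lower at induction, and 2 were higher and 10 lower at 12 h. The 2 higher ones were Ebf4 and Ebf1, transcription factors of olfactory neurons, at 7.22 (SE 0.58, adjusted p = 3.62e-11) and 4.29 (SE 0.77, adjusted p = 2.72e-05) at induction. Emx2, a homeodomain factor, was lower, at -3.21 (SE 0.31, adjusted p = 1.41e-09) at 3 h, and Setdb1, an H3K9 methyltransferase, at -1.80 (SE 0.15, adjusted p = 1.63e-11) at 6 h.

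Summed over 9 markers of olfactory sensory neurons the level was 6.68 to 12.5 CPM in the 15 Activator libraries from induction on and 7.62 to 10.5 CPM in the Control libraries of those stages. Of 7 tested markers 2 were higher and 1 lower at induction and 3 higher and 0 lower at 12 h, where 22.1% and 12.2%, and 31.3% and 18.9%, of all genes were. Omp, the olfactory marker protein, had 2 to 28 counts in a library, and Cnga2, a subunit of the olfactory channel, had 28 counts in all 36 libraries together and none in 21 of them. Of the same neuron list Rtp1 held 593 counts in the Activator line and 3 in the Control line, Stoml3 303 and 21, and Rtp2 73 and 1. Gnal, of that list too, held 2062 and 1618. The supporting cell markers Cyp2g1 and Ermn had 11 and 2 counts in all. Summed over the 4 supporting cell markers, the level at 12 h was 5.82 to 8.86 CPM in the Activator line. In the Control line it was 0.283 to 0.571 CPM. Of the other marker lists, at 12 h 1 of 1 tested supporting cell markers was higher, 1 of 2 neuron markers was higher and 1 lower, and 1 of 3 epithelium and 1 of 2 leukocyte markers were higher. Of the male germ cell markers 2 of 2 were higher, their sum at 9.06 to 9.96 CPM against 0.330 to 0.566 CPM, and of the endothelium markers 3 of 3, their sum at 23.6 to 33.5 CPM against 0.377 to 0.507 CPM. Of the fibroblast markers 0 of 11 were higher and 6 lower. The part of these genes in the receptor result was not tested.

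Other gene families with chemosensory members gave the receptor genes a scale. They were taken by the start of the gene symbol, so not every gene counted need be a chemoreceptor. At least 100 counts were reached by 20 of 321 Vmn1r genes and 48 of 239 Vmn2r genes, which encode vomeronasal receptors, by 8 of 40 Tas2r bitter taste receptors, by 3 of 3 Tas1r taste receptors, by 2 of 8 Fpr formyl peptide receptors, by 11 of 19 Ms4a genes and by 0 of 16 Taar genes, the trace amine receptors. Of those tested, 40 of 42 Vmn2r, 13 of 18 Vmn1r (with 3 lower), 8 of 8 Tas2r, 1 of 3 Tas1r, 2 of 2 Fpr and 11 of 11 Ms4a genes were called higher at 12 h, beside 164 of 175 olfactory receptor genes and 31.3% of all genes. Since each family was cut at the same sum, these counts too are a description.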

How the data were processed

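Total RNA of MEF cells was sequenced as stranded paired-end libraries. The authors trimmed the reads with cutadapt, used STAR for alignment (GRCm38) and TEtranscripts for counting over genes and repeats. The deposited values are raw counts, whole numbers without normalisation. The annotation release, the strand setting and the sharing of multi-mapped reads are not given in the sources used here, so reads of near-identical, antisense or overlapping genes may not be told apart. The table held 54842 genes, 54495 of them in GENCODE M21, 1561 repeat families and 1 unnamed row with 0.00326% of counts, which was left out.

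Counts were tested with edgeR 4.0.16 in R 4.3.3 (filterByExpr, TMM factors, robust glmQLFit, glmQLFTest) over 36 libraries, with 12 groups and the replicate number, a term that the authors' DESeq2 model also held. Deviations from the group mean of same-numbered libraries of the 2 lines correlated at over 0.1 in 16 of 18 pairs, and in all 3 pairs at 4 of the 6 stages. P-values were adjusted by Benjamini-Hochberg over 28536 genes. Each standard error is the absolute log2 fold change over the square root of its F statistic. A floor of 3 counts over a group set lower bounds, and intervals and floors cover counting error only. Within groups, libraries differed by a chi-square of 18.6 to 308 per degree of freedom, so none was a copy of another. The steps were tested on simulated data. Alternatives were DESeq2 1.42.0, other scalings and filters, no fold limit, no replicate number, only the groups compared, and each replicate and library left out. Coding stretches are from GENCODE M21 transcripts and promoters from RefSeq (GRCm38.p6).

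The receptor genes and the gene lists were chosen with earlier results of these data known. Named by rule were the 10 genes with most counts, up to 4 called rises and 4 called falls of largest fitted fold change between the lines at each stage that went the same way in all 3 same-numbered replicate pairs, up to 4 called genes for induced against uninduced in each line, the 3 genes on either side of the minimum, genes overlapping or near the named ones, and up to 4 called genes of each list. Genes named for their course, run, sequence, Control counts or lack of a call were chosen after their values were seen.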

Additional observations from a re-analysis of the deposited data

Results flagged for a closer look

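For 7 of the 10 leading receptor genes the response to induction was unlike in the 2 lines, by a test of the difference itself (an interaction term in edgeR, Benjamini-Hochberg adjusted). On the log2 scale the change in the Activator line exceeded that in the Control line by 4.26 (SE 0.56, adjusted p = 5.35e-06) for Olfr1372-ps1, by 5.18 (SE 0.61, adjusted p = 8.61e-07) for Olfr1373 and by 5.57 (SE 0.51, adjusted p = 5.30e-08) for Olfr1392. It exceeded it by 4.70 (SE 0.59, adjusted p = 2.03e-06) for Olfr1564 and 6.29 (SE 0.85, adjusted p = 4.60e-06) for Olfr461. For Olfr1420 and Olfr63, which have few counts outside the Activator libraries from induction on, it was 6.83 (SE 1.51, adjusted p = 0.00134) and 5.34 (SE 1.5, adjusted p = 0.00803). Of all genes 9.14% had a larger change in the Activator line. The 10 genes were taken for their summed counts, most of them from Activator libraries from induction on, so these differences describe the chosen genes and support nothing further. Groups of 3 libraries were not tested for outlying values.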

How the results depend on the processing

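Of 245 counts of called receptor genes under other settings, 227 were within 1.5 times the reported count and 18 were not. Before induction the count was 1 in place of 0 with DESeq2, without the replicate block and with only the groups compared. With only the groups compared, where fewer receptor genes could be tested, the count was 59 of 73 at induction, 90 of 97 at 24 h and 61 of 72 for induced against uninduced Activator libraries. Of all genes 3629, 4922 and 3324 were higher in these fits and 2965, 997 and 3394 lower, with the number tested not given here. In such a fit the filter kept receptor genes mainly through their Activator counts, so these counts describe and do not test. With a mean normalised count above 100 required, 15 receptor genes were left, and 15 were called between the lines at induction, 3, 6, 12 and 24 h, over the time points together, and for induced against uninduced Activator libraries, and 9 for the difference of changes. That mean covers all libraries and is raised by the Activator libraries from induction on. The calls among these 15 genes therefore describe the genes kept and support nothing further. The share of all genes under this limit is not given here. DESeq2 called 86 for the difference of changes. With replicates or libraries left out, the counts between the lines were 103 to 138 at induction and, at 3, 6, 12 and 24 h, 145 to 167, 155 to 171, 153 to 172 and 132 to 168. Over the time points together they were 155 to 174, and before induction 0. They were 101 to 138 for induced against uninduced Activator libraries, 0 in the Control line, 19 to 39 for the difference of changes, 84 to 104 for 12 h against induced and 54 to 94 for 24 h against induced, comparisons added after the data had been seen. Same-numbered libraries of the 2 lines had correlations of -0.00995 to 0.393 in their deviations from the group means, over 0.1 in 16 of 18 pairs. The exceptions were replicate 2 at 12 h and at 24 h, so pairing holds by this measure at the other 4 stages and not at these. Leaving out the replicate block changed no other count by over 1.5 times. Of 1336 values of single named genes, 0 reversed and 43 lost the call, all in Olfr99, Olfr755-ps1, Olfr1397-ps1 and Olfr482. A setting in which a named gene could not be tested gave no value and is not counted. Genes with no count in a group limit what depth can show, since their fitted fold change depends on the prior count.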
